A study of Mus musculus with 2 samples.

Results

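The genes described here are the 10 that encode the adaptors, kinases, ubiquitin ligase and receptor chaperone through which Toll-like receptors signal: Myd88, Tirap, Ticam1, Ticam2, Irak1, Irak2, Irak3, Irak4, Traf6 and Unc93b1. They were chosen by symbol among the 23238 gene symbols of the deposited count files. All 10 were found, none of them under a repeated symbol. RNA was measured in mouse bone marrow-derived dendritic cells, which take up antigen and present it to T cells. There was 1 control library and 1 library from cells given UNE-C1 at 100 nM over 24 h. This protein, a domain of cysteinyl-tRNA synthetase, is known as a ligand of TLR2 and TLR6, and the series asks which signalling molecules it induces. Both cultures came from female C57BL/6 mice aged 7 weeks, carried 20 ng/ml GM-CSF with a fresh supply on day 3, and gave immature cells on day 6. The labels say neither what the control culture received nor how many mice were pooled.

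Toll-like receptors carry a cytoplasmic TIR domain, which recruits adaptors with a TIR domain of their own. MyD88 serves nearly all of these receptors and the interleukin-1 receptor family, and brings in the kinase IRAK4, which activates IRAK1 and IRAK2. These act through the ubiquitin ligase TRAF6 towards NF-kappaB and MAP kinases, while IRAK-M, the product of Irak3, is known mainly as a brake on the same complex. TRIF, the product of Ticam1, is the adaptor of TLR3 and, through the bridging adaptor TRAM (Ticam2), of TLR4, and leads to interferon induction.

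The libraries held 14857198 control reads and 15975821 UNE-C1 reads. Levels are CPM, reads scaled to library size, with library sizes adjusted by TMM, a method that sets the bulk of genes equal between libraries. The kit reads messenger RNA near its 3' end, so that a level does not scale with transcript length and the genes can be ranked against each other, apart from differences in how well each 3' end is captured. There is no replicate error, since each group had 1 library, and no p-value is given. The 95% intervals are exact binomial (Clopper-Pearson) and cover counting error only. A gene is called higher or lower here when log2((CPM + 1)/(CPM + 1)), UNE-C1 over control, is at least 1 in size, among the 10469 genes that reached 50 reads in either library. Total counts in place of TMM moved the median gene by -0.32 on that scale, so each direction was also checked with total counts. In bulk RNA, fewer cells of a type and less RNA per cell cannot be told apart.

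All 10 genes passed the read floor, with between 244 and 8741 reads in each library. The adaptors and Traf6 were higher in the UNE-C1 library, and the IRAK kinases were divided, Irak2 and Irak3 higher and Irak1 and Irak4 lower. By CPM ratio 7 genes had a counting interval above 1, as did 37.4% of all genes compared, and 3 an interval below 1, as did 36.3%. Intervals that leave out 1 are thus common at this depth: they were found for all 10 genes, for 73.7% of all genes compared and for 78.5% of the 5853 genes with at least 244 reads in both libraries, the lowest count among the 10. With total counts Tirap went below 1, which left 6 above. By the call rule 2 of the 10 genes, Ticam1 and Traf6, were higher, against 9.31% of all genes compared, and 0 were lower, against 9.42%. The median log2 fold change of the 10 genes was 0.59 and that of all genes compared -0.00. With total counts these medians were 0.25 and -0.33, and neither Ticam1 nor Traf6 met the call rule. Traf6 then had a plain ratio of 2.001 but a log2 fold change of 0.96, the 1 CPM added to both levels placing it below the rule.

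Promoters are shown for the 2 genes that met the call rule and for the 2 in which a motif was found. The sequences are RefSeq's, on GRCm38.p6, from 250 bases before to 50 after an annotated start. The table held 11 such windows for 8 of the 10 genes and none for Ticam2 and Unc93b1. Both strands were searched for the interferon-stimulated response element core, which is 2 copies of GAAA with 2 bases between them, for the gamma-activated site TTCNNNGAA, to which STAT proteins bind, and for the NF-kappaB consensus. Capitals mark the matches.
Myd88, chr9:119339969-119340268, minus strand: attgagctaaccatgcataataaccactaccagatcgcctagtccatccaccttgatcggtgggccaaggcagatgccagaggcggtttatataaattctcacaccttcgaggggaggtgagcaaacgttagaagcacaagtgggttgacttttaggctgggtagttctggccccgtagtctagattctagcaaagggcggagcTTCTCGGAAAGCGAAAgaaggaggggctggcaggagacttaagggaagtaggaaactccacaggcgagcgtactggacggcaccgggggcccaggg
Irak1, chrX:74023872-74024171, minus strand: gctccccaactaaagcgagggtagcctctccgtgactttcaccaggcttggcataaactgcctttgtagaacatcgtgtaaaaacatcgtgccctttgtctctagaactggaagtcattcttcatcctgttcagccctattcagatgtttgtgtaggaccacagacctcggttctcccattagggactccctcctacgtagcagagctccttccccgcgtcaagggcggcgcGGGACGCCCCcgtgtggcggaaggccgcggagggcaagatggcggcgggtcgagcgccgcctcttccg
Traf6, chr2:101678170-101678469, plus strand: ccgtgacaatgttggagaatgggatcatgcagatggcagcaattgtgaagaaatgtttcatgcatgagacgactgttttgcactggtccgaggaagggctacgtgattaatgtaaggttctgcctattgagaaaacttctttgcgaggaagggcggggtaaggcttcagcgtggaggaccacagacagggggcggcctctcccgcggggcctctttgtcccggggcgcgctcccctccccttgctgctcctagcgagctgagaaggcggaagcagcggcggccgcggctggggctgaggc
Ticam1, chr17:56276718-56277017, minus strand: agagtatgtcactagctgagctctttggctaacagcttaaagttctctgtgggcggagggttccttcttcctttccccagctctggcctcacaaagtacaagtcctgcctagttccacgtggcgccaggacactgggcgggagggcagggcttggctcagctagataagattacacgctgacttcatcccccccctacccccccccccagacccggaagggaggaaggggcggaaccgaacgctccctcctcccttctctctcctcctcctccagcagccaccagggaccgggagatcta
The Myd88 window holds both interferon-linked motifs, a gamma-activated site match that begins at -46 and a response element match that begins at -40 relative to the RefSeq start, so that they overlap. Of all 32851 windows in the table, 3.44% hold the response element core and 8.30% the gamma-activated site. In Irak1, for which the first of 2 overlapping windows is shown, the only match was to the NF-kappaB consensus, which 8.46% of all windows hold. The windows of Traf6, Ticam1, Tirap, Irak2, Irak3 and Irak4 held none of the 3 motifs. A match describes these letters and does not show that a factor binds there. The Myd88 window lies inside the GENCODE M21 gene, which has a further start upstream.

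Among the TIR adaptors, Myd88 was the most abundant in both libraries. Its reads numbered 1386 without and 1867 with UNE-C1, or 82.8 and 132 CPM (1.59-fold higher, interval 1.48 to 1.70), which placed its log2 fold change of 0.66 above that of 84.4% of the genes compared. Myd88 lies on the minus strand of chromosome 9 from 119335934 to 119341411 on GRCm38, the build of all positions here. The last 500 bases of its main annotated transcript lie within the span of Slc22a14, a transporter gene on the same strand. Since Slc22a14 had 0 and 1 reads in the files, few reads were assigned to that gene.

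Tirap, also called Mal, links MyD88 to TLR2 and TLR4 at the plasma membrane. It was the least abundant of the 10 in the UNE-C1 library, on 284 control and 289 UNE-C1 reads (17.0 and 20.4 CPM). Its ratio was 1.2 (1.02 to 1.42) with TMM and 0.946 with total counts, so the scaling decides its direction. The gene occupies chromosome 9 from 35184551 to 35200291.

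Ticam1 had the lowest control level of the 10 genes, 14.6 CPM on 244 reads, and stood at 34.9 CPM on 495 reads with UNE-C1. The ratio was 2.39 (2.05 to 2.80), or 1.89 with total counts. It lies on chromosome 17 from 56269319 to 56276786 in 2 exons, the last of 2899 bases. Ticam2, the bridge between TRIF and TLR4, had 755 and 1071 reads, 45.1 and 75.5 CPM, and a ratio of 1.67 (1.52 to 1.84). Both TRIF-arm adaptors were thus higher in the UNE-C1 library by more than counting error, under each scaling tried. The 4 adaptors together went from 159.5 to 262 CPM (1.65-fold, 1.56 to 1.73, or 1.30-fold with total counts).

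**Figure D1:**
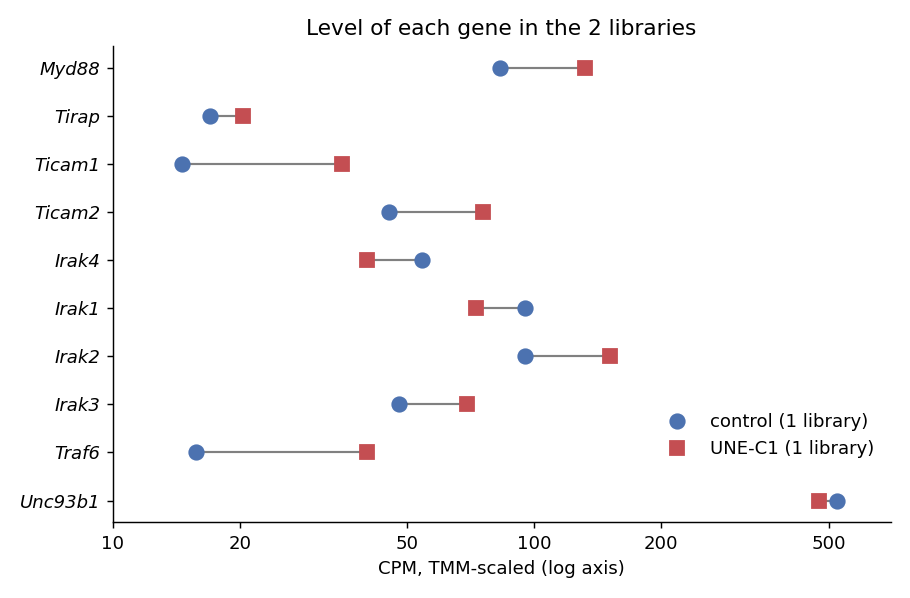
CPM, scaled by TMM, of each gene in the control library (circles) and the UNE-C1 library (squares), on a log axis, with 1 library per group and no error bars. Unc93b1 stands apart near 500 CPM, Ticam1 and Traf6 have the widest gaps, and Irak4, Irak1 and Unc93b1 are lower with UNE-C1.

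The 4 IRAK genes did not differ in 1 direction as a family. Irak4, the kinase at the head of the complex, had 906 reads in the control and 568 with UNE-C1, 54.1 and 40.0 CPM (1.35-fold lower, 1.22 to 1.504). Irak1, its substrate and a kinase in its own right, had 1590 and 1029 reads, 95.02 and 72.5 CPM (1.31-fold lower, 1.21 to 1.42). Total counts lower every ratio, so both stayed below 1 with them by construction. Irak4 lies on chromosome 15 from 94543643 to 94581815 and Irak1 on chromosome X from 74013914 to 74023918.

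Irak2, known for its part in sustained responses late after receptor engagement, matched Irak1 in the control with 1589 reads and had 2142 with UNE-C1. Its level went from 94.96 to 151 CPM, 1.59-fold higher (1.49 to 1.70). Irak3, whose product IRAK-M is induced in tolerant macrophages and restrains the pathway, had 800 and 981 reads, 47.8 and 69.2 CPM (1.45-fold higher, 1.32 to 1.59). With total counts the ratios were 1.25 for Irak2 and 1.14 for Irak3, on the same side of 1. Irak2 spans chromosome 6 from 113638467 to 113695026 and Irak3 chromosome 10 from 120141648 to 120202130. Summed over the 4 genes, the level was 292 CPM in the control and 333 with UNE-C1, a ratio of 1.14 (1.09 to 1.19) that turned to 0.899 with total counts.

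**Figure D2:**
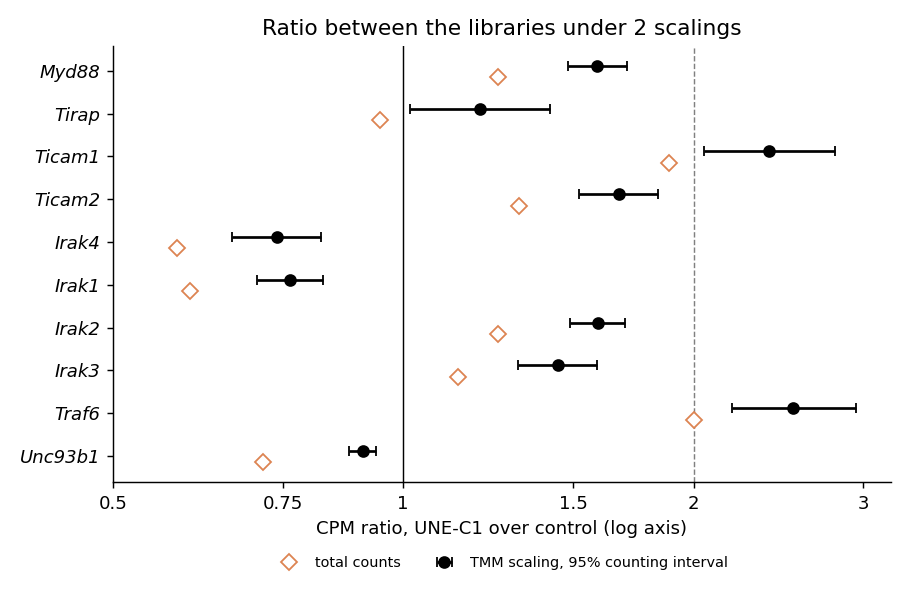
CPM ratio of UNE-C1 over control for each gene on a log axis, with TMM scaling (filled circles, bars are 95% counting intervals) and with total counts (open diamonds). The dashed line marks 2-fold; only Tirap changes its side of 1 between the scalings, from 1.2 to 0.946.

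The composition of the IRAK family needs no scaling between libraries, since each share is taken within 1 library. Irak1 made up 32.5% of the 4885 IRAK reads in the control (31.2 to 33.9) and 21.8% of the 4720 in the UNE-C1 library (20.6 to 23.0). Irak2 went the other way, from 32.5% (31.2 to 33.9) to 45.4% (44.0 to 46.8). Irak4 had 18.5% and 12.03%, and Irak3 16.4% and 20.8%. Irak1 and Irak4 together held 51.1% of the family's reads in the control and 33.8% with UNE-C1.

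Within the 4 adaptors, the shares differed less. Myd88 held 51.9% of the adaptor reads in the control (50.01 to 53.8) and 50.2% with UNE-C1 (48.5 to 51.8), and Ticam2 28.3% and 28.8%, with overlapping intervals in each case. Ticam1 took 9.14% (8.08 to 10.3) and 13.3% (12.2 to 14.4), and Tirap 10.6% (9.50 to 11.9) and 7.76% (6.92 to 8.67). The intervals of these 2 adaptors did not overlap between libraries, the share of Ticam1 being higher and that of Tirap lower. Shares of either family were not set against shares among other genes. Differences past counting error are common here: intervals of the CPM ratio left out 1 for 78.5% of genes with at least 244 reads in both libraries.

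**Figure D3:**
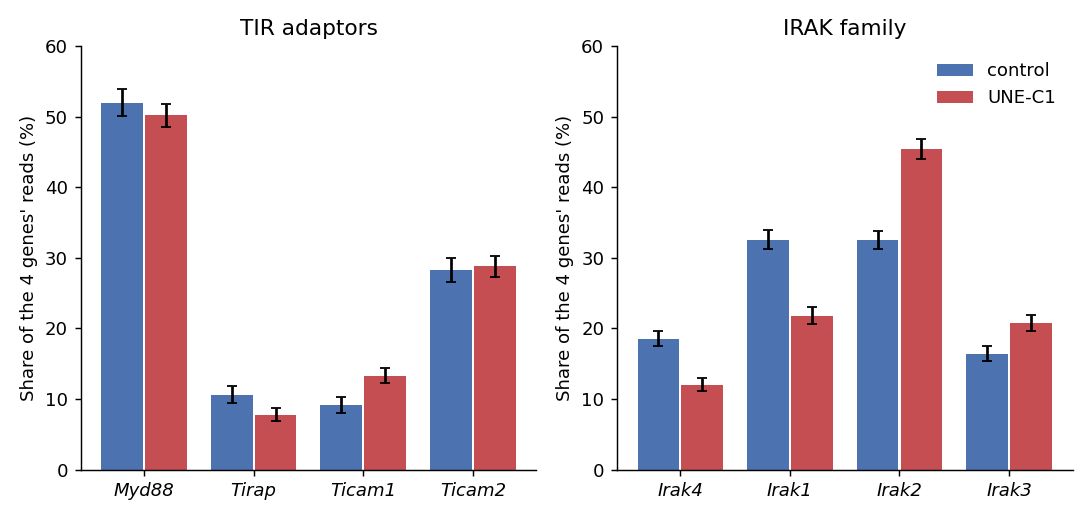
Share of the reads of the 4 TIR adaptors (left) and of the 4 IRAK genes (right) in each library, in percent, with exact 95% binomial intervals as bars. Myd88 and Ticam2 keep similar shares, while Irak2 goes from 32.5% to 45.4% and Irak1 from 32.5% to 21.8%.

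Traf6 had the highest ratio of the 10 genes. It counted 264 reads in the control and 568 with UNE-C1, 15.8 and 40.0 CPM (2.54-fold higher, 2.19 to 2.95, or 2.001-fold with total counts). Its log2 fold change of 1.29 exceeded that of 93.5% of the genes compared. Traf6 lies on chromosome 2 from 101678429 to 101701669, with a last exon of 5007 bases.

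Unc93b1 encodes the chaperone that carries nucleic acid-sensing Toll-like receptors from the endoplasmic reticulum to endosomes. It was the most abundant of the 10 genes by a wide margin, with 8741 and 6728 reads, 522 and 474 CPM, above 98.0% and 96.8% of the genes compared. The ratio was 1.10-fold lower (1.07 to 1.14), a small difference that many reads set apart from counting error and no replicate checks. The gene occupies chromosome 19 from 3935186 to 3949340.

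Comparing genes pairwise within each library recasts the same ratios, each pair being the quotient of 2 of them, so that the scaling cancels. Of the 45 pairs among the 10 genes, 37 had a between-library ratio of ratios whose 95% interval, not adjusted for the number of pairs, left out 1, and 8 did not. That share is near the background, since 79.6% of all pairs of genes with at least 244 reads in both libraries left out 1 (by a normal approximation, which also gave 37 for the 45 pairs). Reads of Irak2 per read of Irak1 went from 0.999 to 2.08 (2.08-fold, 1.88 to 2.31), and those of Irak3 per read of Irak4 from 0.883 to 1.73 (1.96-fold, 1.70 to 2.26). Irak1 against Irak4 kept its ratio within error (1.03, 0.904 to 1.18), as did Irak2 against Irak3 (1.10, 0.979 to 1.23).

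Myd88 stood at 0.872 reads per read of Irak2 in both libraries (ratio of ratios 0.999, interval 0.908 to 1.10). Against Irak4, the kinase that it recruits, Myd88 went from 1.53 to 3.29 (2.15-fold, 1.89 to 2.44). The largest shift was that of Traf6 against Irak4, from 0.291 to 1.00 reads (3.43-fold, 2.86 to 4.13). Ticam1 and Traf6, the 2 genes that met the call rule, kept their ratio to each other within error (0.943, 0.759 to 1.17). The other pairs with an interval that held 1 were Myd88 with Ticam2 and with Irak3, Tirap with Irak3, and Ticam2 with Irak2.

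The rest of the pathway was described by 6 lists of 80 symbols in all, of which 78 were in the files and 67 passed the read floor. Of the 67, 9 were called higher and 5 lower, near the shares of 9.31% and 9.42% over all genes compared, with a median log2 fold change of 0.35. With total counts 6 were called higher and 9 lower, where all genes compared had 657 higher and 1693 lower. Among receptors and accessory proteins 3 of 16 genes were called higher and 4 lower (median 0.33). With total counts it was 1 higher and 5 lower (median -0.01), and with a pseudocount of 5 or a floor of 200 reads 3 higher and 1 lower. Tlr3, the receptor that signals through Ticam1, went from 106 to 392 reads (log2 fold change 1.96). Both chains of the interleukin-18 receptor, which also uses MyD88, were lower: Il18r1 had 122 and 17 reads (-1.92) and Il18rap 167 and 53 (-1.21). These few reads make the calls depend on the setting: with a pseudocount of 5 the values were -0.99 and -0.78, short of the call rule, and neither gene reached the floor of 200 reads. The scavenger receptor Cd36, a co-receptor of the TLR2 and TLR6 pair, was lower at -1.22.

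Genes listed for the folding, transport and processing of endosomal receptors, not all of them direct partners of Unc93b1, had a median of 0.04. Of these, 0 of 12 were called higher and 1 lower, against 9.31% and 9.42% of all genes compared. With total counts the median of the list was -0.27 and 3 of its genes were called lower. The called gene was Atp6v0d2, a proton pump subunit, at 5757 and 1930 reads (-1.33). Hsp90b1, which encodes the chaperone gp96 that Toll-like receptors need for folding, stood at -0.79 and the protease Ctsl at -0.81, and these were the further genes called lower with total counts (-1.13 and -1.15). Ctss, another protease that cleaves these receptors, stood at 0.81.

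Of the kinases and ubiquitin ligases below TRAF6, 2 of 15 were called higher and 0 lower (median 0.26), where all genes compared had 9.31% higher and 9.42% lower. With total counts it was 1 higher and 1 lower (median -0.08). The 2 called higher with TMM were Rnf31, the catalytic subunit of the linear ubiquitin chain complex, with 150 and 528 reads (4.15-fold, 3.46 to 5.01), and Peli1, an IRAK-interacting ubiquitin ligase, with 938 and 1664 (2.09-fold, 1.93 to 2.27). The log2 fold change of Peli1, 1.05, went to 0.71, below the call rule, with total counts. Its relative Peli2 was on the other side, at 715 and 354 reads (log2 fold change -0.75, or -1.08 and called lower with total counts), so that Pellino genes, like IRAK genes, differed in direction. Ube2v1, part of the ubiquitin-conjugating pair that TRAF6 uses, had a log2 fold change of 0.89.

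Below the adaptors Ticam1 and Ticam2, which the list leaves out, 0 of 9 genes of the TRIF arm met the call rule in either direction. Above 0 were 7 of them (median 0.41, or 0.08 with total counts). Of all genes compared, 9.31% were called higher, 9.42% were called lower and 49.6% were above 0. Ripk1 turned from 0.21 to -0.13 with total counts. The largest values on the TRIF list were those of the TBK1-binding scaffold Tank (0.97), the adaptor Tradd (0.68), the kinase Tbk1 (0.61) and Azi2 (0.52), another TBK1 adaptor. Of 5 other TRAF genes, all 5 were above 0 with TMM, with 1 called higher (median 0.39), while Traf7 turned to -0.04 with total counts. The called gene was Traf1, known as an NF-kappaB target, at 2032 and 5267 reads (3.06-fold, 2.90 to 3.22). Traf2, Traf5 and Traf3, the last also on the TRIF list, stood at 0.84, 0.39 and 0.35.

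Inhibitors of the adaptor arm had the highest median of the 6 lists, 0.63 (0.30 with total counts), with 3 of 12 called higher and 0 lower. Over all genes compared 9.31% were called higher and 9.42% lower, and the median was -0.005 (-0.33 with total counts). The lists were chosen with earlier results of these data known, so their order is a description only. Socs1, which also restrains cytokine receptors, went from 103 to 1812 reads (20.8-fold, 17.0 to 25.6). Dusp1, a MAP kinase phosphatase, had 529 and 2916 reads (6.50-fold, 5.93 to 7.15), and Trafd1, a TRAF-binding feedback protein, 2262 and 5023 (2.62-fold, 2.49 to 2.75). Tank is also on this list. Of the transcription factors that MyD88 binds, Irf5 had 2327 and 3188 reads (1.62-fold, 1.53 to 1.71) and Irf7 649 and 20200 (36.7-fold, 34.0 to 39.8).

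**Figure D4:**
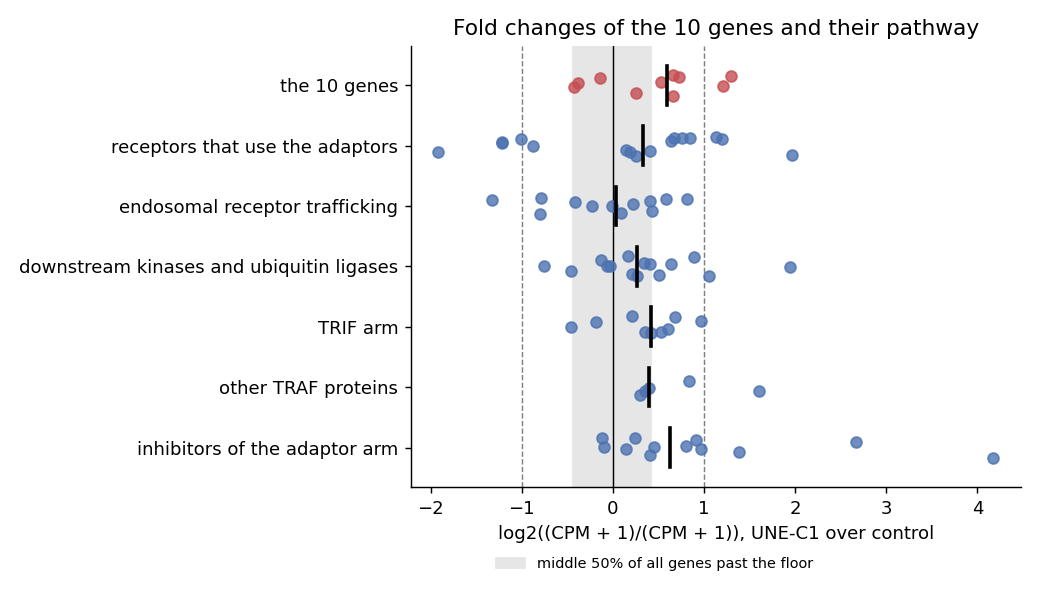
Log2((CPM + 1)/(CPM + 1)), UNE-C1 over control, of the 10 genes (red) and of each pathway list (blue), 1 point per gene past the read floor, with the median as a black bar. Dashed lines mark 1 and -1, and the grey band holds the middle 50% of all genes compared; the 10 genes have a median of 0.59 and the inhibitors 0.63.

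Markers of the labelled cell type were present in both libraries. H2-Ab1 had 45713 and 36789 reads and Itgax, which encodes CD11c, 12693 and 3493, while Cd209a was at 0 in both. Of 11 conventional dendritic cell markers past the floor, 2 were called higher, Xcr1 (1.76) and Irf8 (1.32), and 2 lower, Itgax itself (-1.62) and Clec9a (-1.75). Their summed level of 7219 and 7275 CPM is made up mostly of H2-Ab1 and Cd74, at -0.07 and -0.00. All 11 measured neutrophil markers were called lower, from Ngp at -1.08 to Retnlg at -3.55 and with Elane at -2.37, and their summed level went from 8321 to 3211 CPM. Some had few reads, Elane 106 and 6 and Mpo 95 and 13, and with a pseudocount of 5 Mpo (-0.85) fell short of the call rule. For all the marker counts here, the shares over all genes compared were 9.31% higher and 9.42% lower. Monocyte and macrophage markers were divided, 3 of 9 higher and 3 lower (7541 and 5668 CPM), with Fcgr1 at 3.55 and Mrc1 at -3.56. Of 6 mast cell, basophil and eosinophil markers 0 were higher and 2 lower, Siglecf (-2.17) and Cpa3 (-1.15), with summed levels of 1220 and 803 CPM. Plasmacytoid dendritic cell markers had 1 of 3 higher, the interferon-inducible Bst2 at 2.94, beside Ccr9 at -0.63. Their summed level of 127 and 432 CPM was mostly Bst2 (38.4 and 301 CPM) and Tcf4 (81.9 and 127 CPM). Siglech, below the floor, had 9 and 0 reads. Erythroid and megakaryocyte markers had 0 of 3 called, with Pf4 at -0.97 and Hba-a1 at 0.14. Pf4, at 286 and 145 CPM, made up most of their summed 298 and 159 CPM. B cell markers summed to 2.03 and 0.352 CPM and T and natural killer cell markers to 1.73 and 0.987 CPM. With total counts Irf8 (0.98) was no longer called higher, and Flt3 (-1.12), Csf1r (-1.01) and Pf4 (-1.31) were called lower. Hba-a1 went to -0.16. The part of these marker differences in the values of the 10 genes was not tested.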

How the data were processed

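The deposited files hold raw read counts per gene symbol, 1 file per library, a unit read from the values, since the headers carry only a number. Libraries were made with a QuantSeq kit from 500 ng of RNA, per the labels' protocols. Bowtie2, edgeR and the build mm10 appear in the submitters' processing notes. Their versions and roles, and the counter, annotation and strandedness, are not given in sources used here. Repeated symbols (35) were summed. Effective library sizes came from TMM in edgeR 4.0.16 (R 4.3.3), with factors of 1.13 and 0.888. Intervals used scipy 1.17.1. The pseudocount was 1 CPM. The ribosomal RNA precursor Rn45s held 5.21% of control and 3.98% of UNE-C1 reads. Without molecular identifiers, reads are not independent molecules. Alternatives were total counts, DESeq2 1.42.0 size factors, TMM without Rn45s, pseudocounts of 0.1 and 5, no floor and a floor of 200 reads. The procedure was run on simulated data with counting error only, which cannot show how the intervals hold under replicate spread. Genes named are the 10 members, the 4 largest fold changes in size of each pathway list and up to 2 of each marker list. Irf5 and Irf7 are also named. Slc22a14, H2-Ab1, Cd74, Itgax, Irf8, Cd209a, Ngp, Traf7, Flt3, Csf1r, Tcf4 and Siglech were chosen after their values were seen. So were Ripk1, Mpo, Zbtb46, Ccr7, Batf3, Irf4 and Lyz2. The members and lists were chosen with earlier results of these data known. Positions and exons come from GENCODE M21.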

Additional observations from a re-analysis of the deposited data

How the results depend on the processing

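Total counts moved the 10 genes most, and the lists also depended on the pseudocount and the floor. With total counts the log2 fold changes were 0.32 for Myd88, -0.075 for Tirap, which thereby changed sign, 0.88 for Ticam1, 0.39 for Ticam2, -0.72 for Irak1, 0.32 for Irak2, 0.19 for Irak3, -0.76 for Irak4, 0.96 for Traf6 and -0.48 for Unc93b1. Total counts lower every gene alike, by construction, and left 0 of the 10 genes called higher, a median of 0.25 over the 10, and 6 pathway genes called higher and 9 lower, against 9 and 5 with TMM. The pathway genes called lower numbered 2 at a pseudocount of 5 and also 2 at a floor of 200 reads, settings that hold back or leave out genes with few reads. With DESeq2 size factors, TMM without Rn45s, either pseudocount, no floor or a floor of 200 reads, 2 of the 10 genes were called higher and 0 lower. Counting error limits Tirap, Ticam1 and Traf6 most, with 284, 244 and 264 control reads. No paired analysis was possible because each group has 1 library and the labels give no replicate numbers.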
